A study of Mus musculus with 16 samples.

Results

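Psap, the precursor of the saposins, and 34 other lysosome genes were followed across 16 polyA RNA-seq libraries of mouse pre-B cells. The 35 genes are the rows of the series table that carry the symbols of a chosen list of lysosomal hydrolases, their activators and lysosomal membrane proteins, out of 23279 symbols in all. The study crossed the fusion kinase BCR-ABL, which drives B-lineage leukaemia, with loss of SHP2, a phosphatase encoded by Ptpn11 that links kinase signalling to the RAS pathway. There were 4 libraries in each of 4 groups, which were BCR-ABL (+/+) SHP2 (-/-), BCR-ABL (+/+) SHP2 (+/+), BCR-ABL (-/-) SHP2 (-/-) and BCR-ABL (-/-) SHP2 (+/+) cells, written below as SHP2-null and SHP2-WT. The labels give pre-B cells for all of them and no strain, age, deletion method or culture. Nor do they tie the replicates to animals or cultures, and p-values therefore reflect only the spread among these libraries, part or all of which may be technical. BCR-ABL (+/+) was read as carrying the fusion and (-/-) as lacking it. Gene-level values could not check that reading, because the fusion has no row of its own, and the direction of every BCR-ABL comparison rests on it.

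Lysosomes are acidic organelles in which proteins, glycans and lipids taken up by endocytosis or delivered by autophagy are broken down. Most of the soluble hydrolases are tagged with mannose 6-phosphate in the Golgi and sorted to the lysosome, and several need an activator, such as the saposins cut from the Psap product, to reach their lipid substrates. Many genes of the organelle are known targets of the transcription factor TFEB and its relatives, which bind E-box sequences. Macrophages, which digest what they engulf, are known for high levels of lysosomal hydrolases.

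Ptpn11 was below 7.44 FPKM in the 8 SHP2-null libraries and at least 15.7 FPKM in the 8 SHP2-WT libraries, as labelled. Dusp6, a target of ERK signalling, was read at 0.255 to 1.11 FPKM in BCR-ABL (+/+) libraries and 1.21 to 14.8 FPKM in BCR-ABL (-/-) libraries. The 1.21 FPKM was read in replicate 2 of BCR-ABL (-/-) SHP2-null cells. Without it that group read 3.68 to 5.12 FPKM, and BCR-ABL (-/-) SHP2-WT cells read 9.03 to 14.8 FPKM. Whether the Dusp6 difference between BCR-ABL (+/+) and (-/-) libraries bears on the reading of the BCR-ABL labels was not tested. FPKM scales fragments to transcript length and library size, and the depth of the libraries is unknown from such values. Summed FPKM ran from 348923 to 443702 per library. The 13 pre-B markers summed to 2634 to 3652 FPKM, while those of granulocytes, mast cells, dendritic cells, T and NK cells, erythroid cells and stroma each stayed at or below 20.3 FPKM in every library. The library BCR-ABL (-/-) SHP2-null replicate 2 stood apart in macrophage markers. They summed to 658 FPKM there and to 11.2 to 67.7 FPKM in the other 15 libraries, and 21 of 25 measured markers were highest in that library. Other genes differed there too. Rag1 was read at 25.0 FPKM, against at most 12.2 FPKM in the other 15 libraries. Dntt was read at 256 FPKM, against at most 183 FPKM. The library was the highest of the 16 for 6 of 13 pre-B markers. It also had the highest sums of T and NK cell markers (3.39 FPKM) and dendritic cell markers (1.998 FPKM). Its pre-B, granulocyte, mast cell, erythroid and stromal sums were not the highest. The main results that rest on this library are given with and without it.

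The promoter sequences of the 5 lysosome genes called below without a replicate block, with all libraries or without that replicate 2, namely Psap, Lamp1, Arsb, Ppt1 and Hexa, are shown together with that of Mcoln1, which holds the extended motif. RefSeq (build GRCm38.p6) gave windows from 250 bases before to 50 bases after the start for 30 of the 35 genes, 3 of them with 2 windows. Each line gives the 100 bases before the start, 5′ to 3′ on the gene's own strand, which is + for all 6. Capitals mark the E-box CACGTG. For Ppt1 the start used, and the stretch shown, lie inside the listed span of the gene, which begins at chr4:122836077.
Psap, first of 2 windows, chr10:60277528-60277627: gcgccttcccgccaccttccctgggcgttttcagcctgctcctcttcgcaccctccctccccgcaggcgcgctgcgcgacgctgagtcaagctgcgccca
Lamp1, chr8:13159061-13159160: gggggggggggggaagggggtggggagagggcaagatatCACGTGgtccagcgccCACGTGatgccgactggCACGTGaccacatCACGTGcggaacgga
Arsb, chr13:93771579-93771678: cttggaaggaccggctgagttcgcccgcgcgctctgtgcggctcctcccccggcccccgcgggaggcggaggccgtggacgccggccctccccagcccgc
Ppt1, chr4:122836127-122836226: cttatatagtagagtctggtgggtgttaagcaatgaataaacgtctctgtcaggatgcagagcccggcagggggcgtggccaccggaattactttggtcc
Hexa, chr9:59539440-59539539: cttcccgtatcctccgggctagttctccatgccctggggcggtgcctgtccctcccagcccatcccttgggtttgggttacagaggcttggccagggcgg
Mcoln1, chr8:3500419-3500518: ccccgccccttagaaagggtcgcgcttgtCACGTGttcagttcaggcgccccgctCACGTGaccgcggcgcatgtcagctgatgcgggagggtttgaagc

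Lamp1 held 4 E-boxes, starting at -61, -45, -28 and -15 relative to the start, and Mcoln1, a lysosomal calcium channel gene, held 2, at -71 and -45. The windows of Psap, Arsb, Ppt1 and Hexa held none, which says only that these letters are not in these windows. CACGTG, which reads the same on both strands, was present in 11 of the 30 lysosome genes with a window (36.7%) and in 8.09% of 27025 genes in the promoter table. The 11 genes were Arsa, Lamp1, Mcoln1, Cln3, Ctsa, Ctsd, Ctsl, Gaa, Gla, Glb1 and Naglu. The longer TCACGTGA, which contains the shorter motif and is also its own reverse complement, was present in 5 of 30 (16.7%) and in 1.12% of the 27025 genes. Tfeb itself was read at 5.40 to 10.2 FPKM in BCR-ABL (+/+) SHP2-null, 5.78 to 8.38 FPKM in BCR-ABL (+/+) SHP2-WT, 5.67 to 10.2 FPKM in BCR-ABL (-/-) SHP2-null and 5.38 to 8.26 FPKM in BCR-ABL (-/-) SHP2-WT libraries, so that the 4 ranges overlapped.

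The levels of the 35 genes, compared on the length-scaled FPKM scale, spanned more than 2 orders of magnitude. Psap was the highest, with a mean of 152 FPKM over the 16 libraries, and made up 15.8% to 22.8% of the summed FPKM of the 35 genes in a library. It was followed by Ppt1, which removes thioester-linked fatty acids from proteins, with 78.6 FPKM, and by Lamp1, an abundant lysosomal membrane glycoprotein, with 72.5 FPKM. Npc2, a soluble cholesterol carrier, averaged 61.2 FPKM. Ctsd, an aspartic protease, averaged 57.5 FPKM, with 1 library far above the other 15. Among the other enzymes of sphingolipid breakdown the acid ceramidase gene Asah1 averaged 20.3 FPKM, the acid sphingomyelinase gene Smpd1 5.62 FPKM and the sulfatide-cleaving Arsa 1.26 FPKM. The remaining membrane proteins ran from 24.6 FPKM for Lamp2 to 1.45 FPKM for the tetraspanin gene Cd63. The glycosidases ran from 24.4 FPKM for Gusb, which encodes beta-glucuronidase, to 2.47 FPKM for the heparan sulfate-degrading Naglu. Ctsl and Ctsh, both cysteine proteases, averaged 1.84 and 0.951 FPKM and were near the lower end of the set. The averages of Cd63, Ctsl and Ctsh were raised by BCR-ABL (-/-) SHP2-null replicate 2, which read 12.7, 12.7 and 4.06 FPKM.

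**Figure D1:**
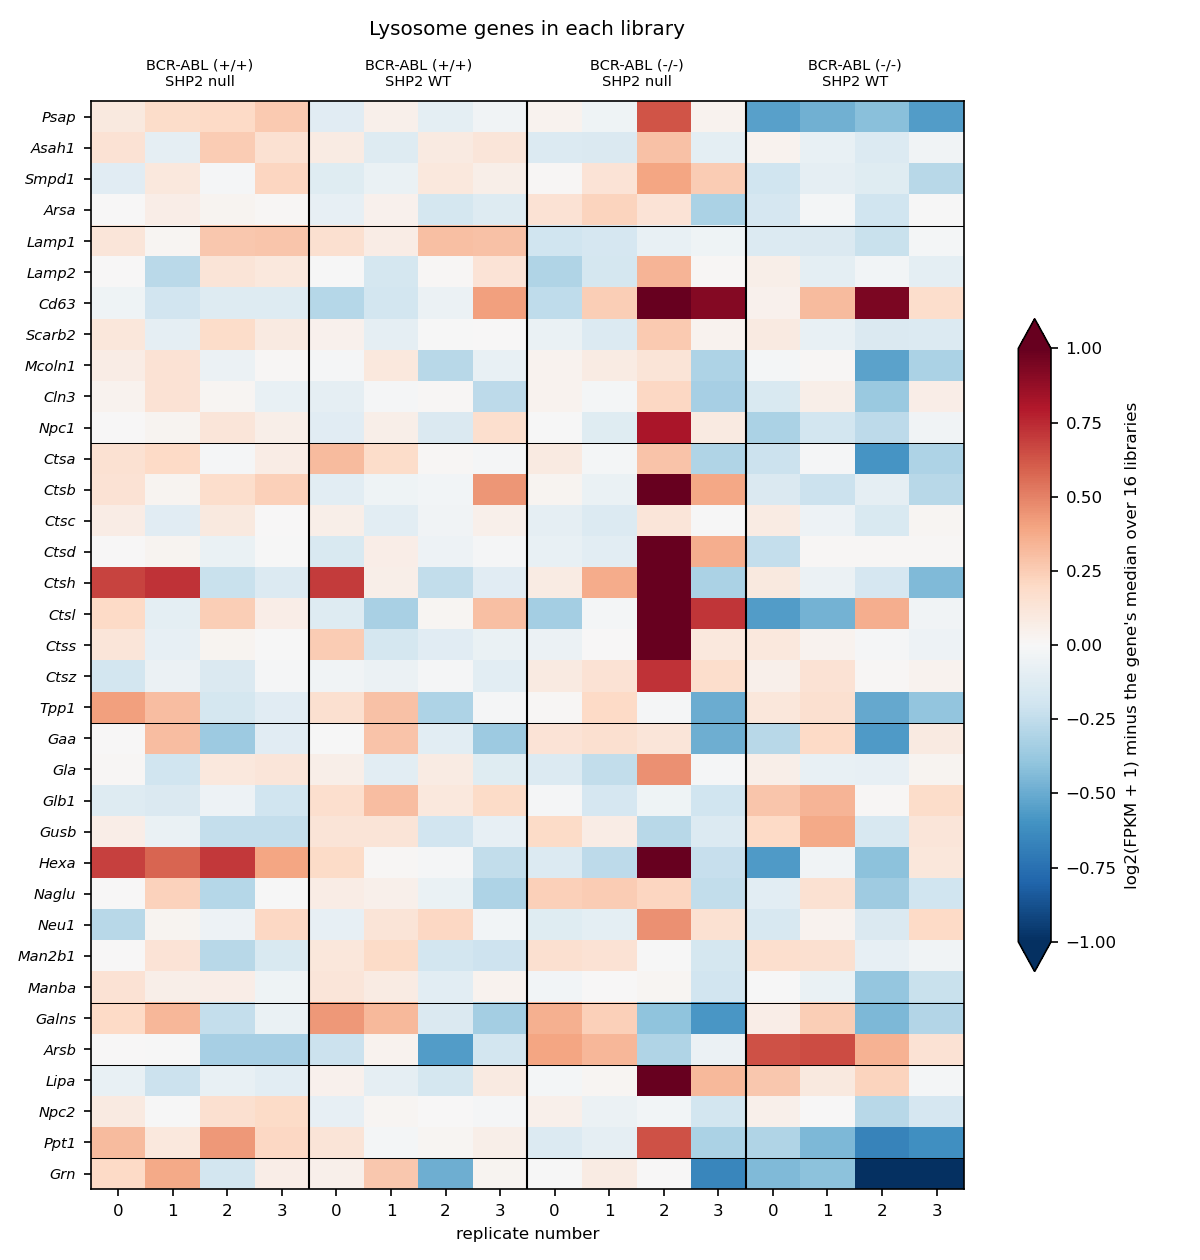
Each row is 1 of the 35 lysosome genes, grouped by role between thin lines, and each column is 1 library, ordered by group and replicate number. Colour gives log2(FPKM + 1) minus the gene's own median over the 16 libraries. Replicate 2 of BCR-ABL (-/-) SHP2-null cells is the highest of the 16 libraries for 20 genes, a count whose share over all genes was not computed. Psap is low in all 4 BCR-ABL (-/-) SHP2-WT libraries.

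The library BCR-ABL (-/-) SHP2-null replicate 2 was the highest of the 16 for 20 of the 35 genes and above the other 3 libraries of its group for 23. The share over all genes was not computed for these counts. Its summed FPKM over the 35 genes was 1267, against 610.6 to 808.3 in the other 15 libraries. For 7 genes, of which Cd63 was too low to be tested, it read at least 2 times the highest of the other 3 libraries. The same held for 1.17% of all genes tested. Cd63 was read at 0.261, 0.785, 12.7 and 1.85 FPKM in replicates 0 to 3 of that group, a ratio of 6.86 between replicate 2 and the next library. Ctsl was read at 0.640, 1.05, 12.7 and 2.40 FPKM, a ratio of 5.29. Ctsd was read at 41.0, 40.2, 274 and 56.1 FPKM, a ratio of 4.88. For these 3 genes replicate 3 was the second highest of the group, as it was for Lyz2. Hexa, the alpha subunit of beta-hexosaminidase, was read at 2.27, 1.997, 9.45 and 2.06 FPKM, a ratio of 4.17. Ctsh was read at 0.708, 1.08, 4.06 and 0.295 FPKM, a ratio of 3.75. Lipa, the lysosomal acid lipase gene, was read at 8.68, 8.94, 24.8 and 11.3 FPKM, a ratio of 2.20. The 7 genes also include Ctss, a cysteine protease of antigen-presenting cells, read at 33.1, 34.7, 79.5 and 37.2 FPKM, a ratio of 2.14.

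Lyz2, the macrophage lysozyme gene, was read at 6.08, 12.5, 403 and 34.3 FPKM in replicates 0 to 3 of BCR-ABL (-/-) SHP2-null cells, against 6.53, 5.92, 28.2 and 12.5 FPKM in BCR-ABL (-/-) SHP2-WT cells. Its levels in BCR-ABL (+/+) libraries were 1.48 to 6.87 FPKM. Replicate 2 also read 88.3 FPKM of Gpnmb, 58.3 FPKM of Lgals3, 12.3 FPKM of Cd68 and 3.57 FPKM of Csf1r, while C1qa was listed at 0 there. The same library read Ptpn11 at 2.87 FPKM, the lowest of the 16. The part of macrophage RNA in the level of any lysosome gene was not tested. In 12 of the 35 genes replicate 2 was not above the other 3 libraries, and these include Lamp1, Npc2, Glb1, Grn and Arsb.

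**Figure D2:**
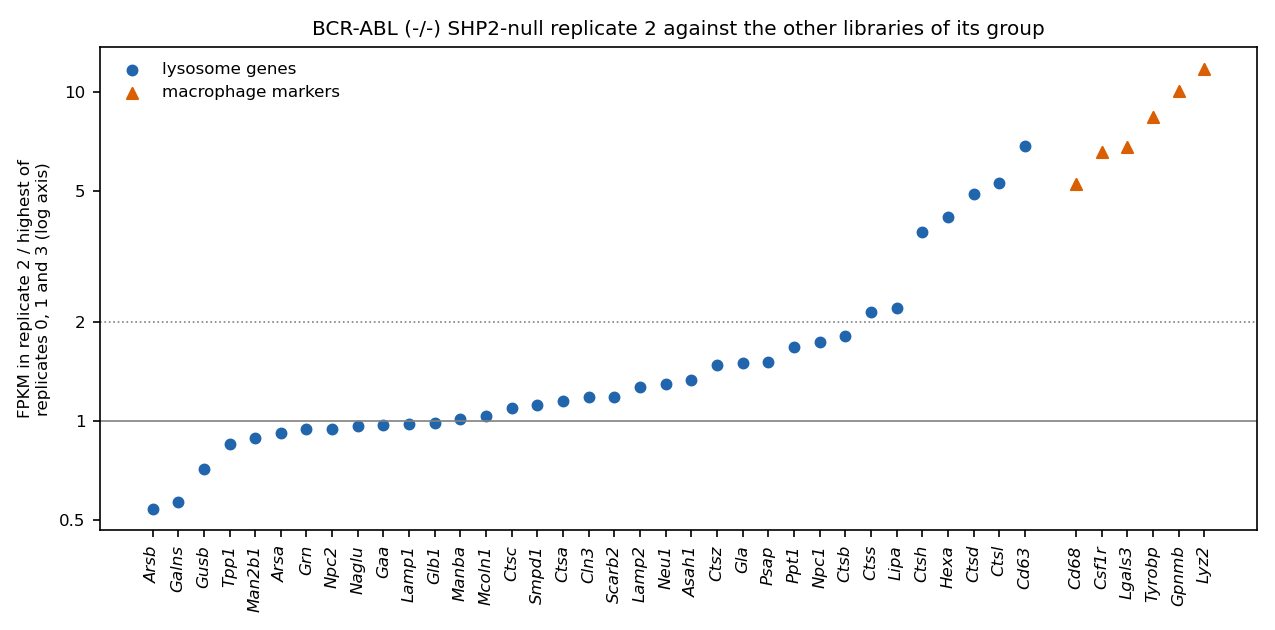
Points give the FPKM of BCR-ABL (-/-) SHP2-null replicate 2 divided by the highest of replicates 0, 1 and 3 of that group, on a log axis, for the 35 lysosome genes (circles) and 6 macrophage markers (triangles). The solid line marks equality and the dotted line 2 times. Cd63, Ctsl, Ctsd, Hexa, Ctsh, Lipa and Ctss lie above 2, up to 6.86 for Cd63, and the markers shown lie between 5.24 and 11.7.

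Loss of SHP2 in BCR-ABL (-/-) cells went with higher Psap. Psap (chr10:60277628-60302600) was read at 158, 149, 239 and 158 FPKM in SHP2-null replicates 0 to 3, against 105, 110.1, 115 and 104 FPKM in SHP2-WT replicates. Every SHP2-null library lay above every SHP2-WT library, also when replicate 2, the highest, is set aside. The means were 176 ± 42.1 FPKM in SHP2-null and 109 ± 4.91 FPKM in SHP2-WT cells (SD, n = 4 each), and Psap rose by 0.67 ± 0.12 (SE) on the log2(FPKM + 1) scale (limma, adjusted p = 0.00654). Without replicate 2 the SHP2-null mean was 155 ± 5.07 FPKM (SD, n = 3), and the rise was 0.51 ± 0.07 (adjusted p = 0.00149). In bulk RNA a different make-up of cells and a different amount of RNA per cell cannot be told apart. The 2 SHP2-null libraries with the lowest Lyz2, 6.08 and 12.5 FPKM, read 158 and 149 FPKM of Psap, and the 4 SHP2-WT libraries read 5.92 to 28.2 FPKM of Lyz2. With these 2 as the only libraries of their group, a choice made after seeing the data, the rise was 0.495 ± 0.081 (limma, adjusted p = 0.00995). The part of macrophage RNA in the Psap difference was not tested. A fit on the 2 groups alone, which takes its spread from these 8 libraries including replicate 2, did not pass (adjusted p = 0.123).

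**Figure D3:**
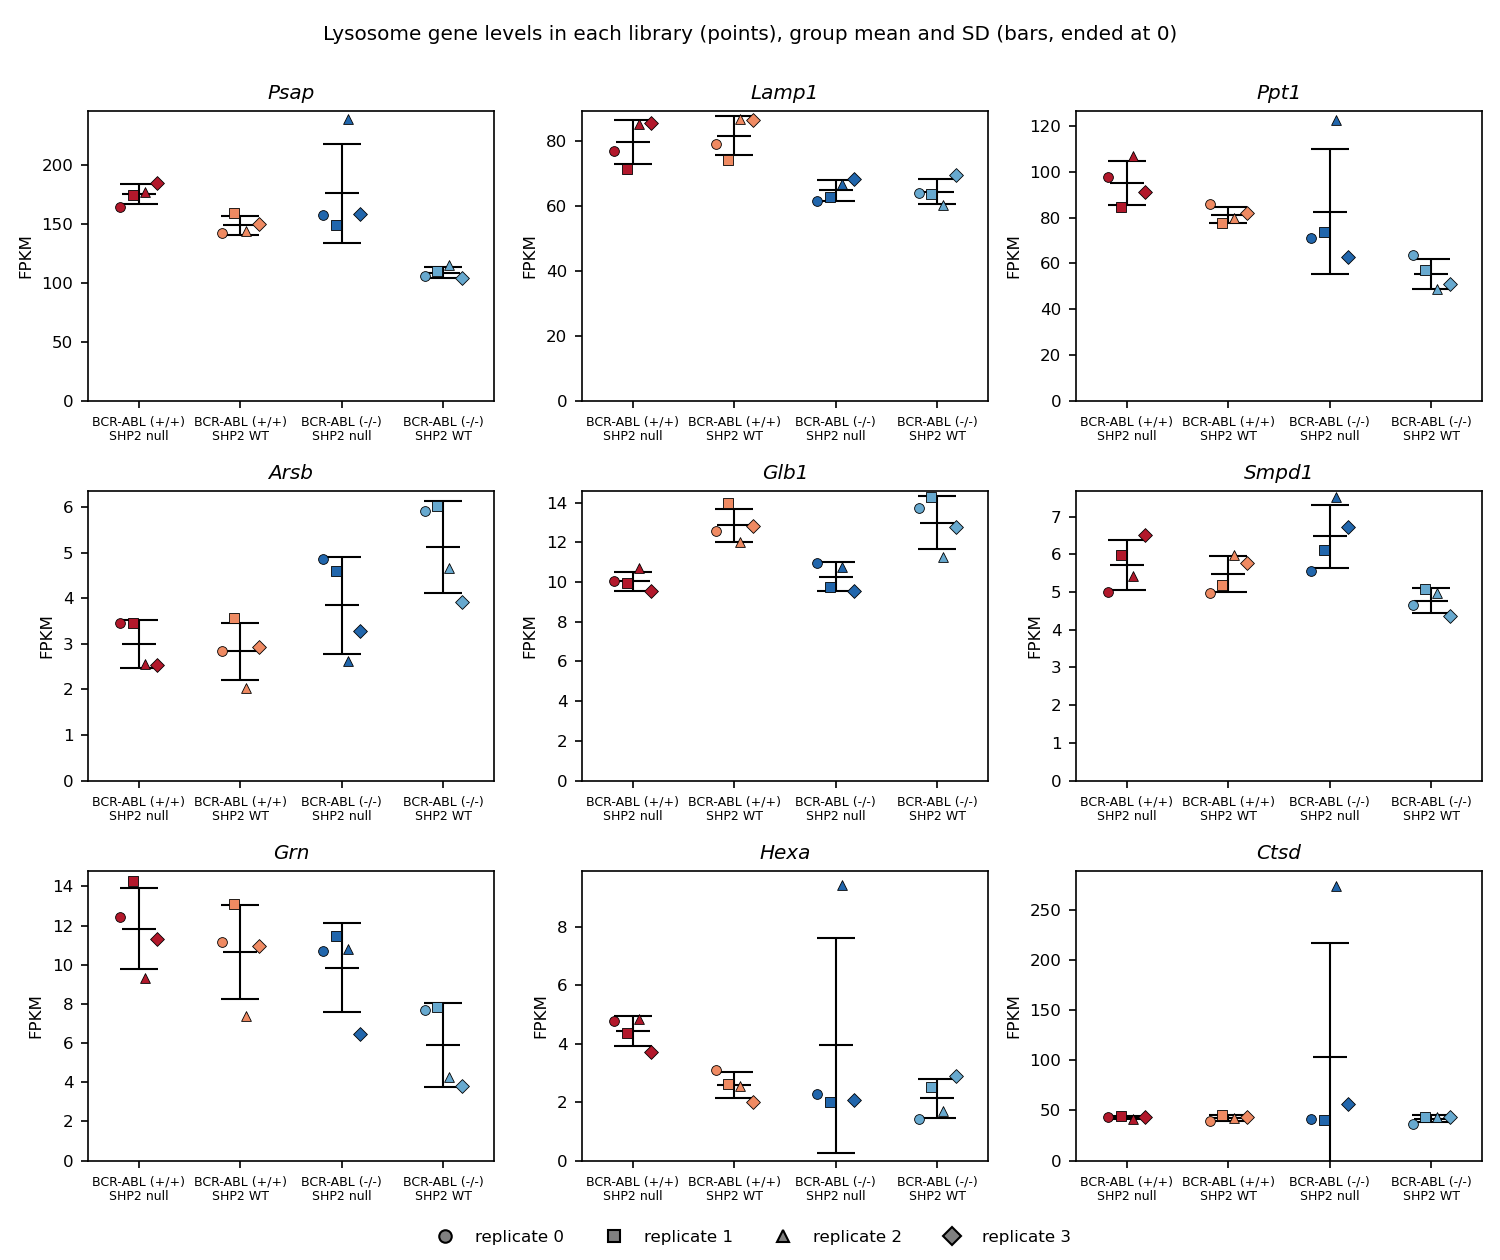
Points are FPKM in single libraries for 9 lysosome genes, with marker shapes for replicate numbers 0 to 3 and bars for the group mean and SD, the bars ended at 0. Psap is lowest in BCR-ABL (-/-) SHP2-WT cells, with all 4 libraries between 104 and 115 FPKM, Lamp1 is higher in both BCR-ABL (+/+) groups, and Ctsd, Hexa, Ppt1 and Psap each have replicate 2 of BCR-ABL (-/-) SHP2-null cells as their highest library.

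Of the 34 lysosome genes tested, Psap alone passed in this comparison, where 1.54% of all genes tested passed (1.01% without replicate 2, where Psap again was the only one). Cd63 was too low to be tested, with under 1 FPKM in 13 of 16 libraries. At an unadjusted p below 0.05 there were 8 of 34 genes, 7 of them higher, against 16.1% of all genes, and without replicate 2 there were 7 of 34, 6 of them higher, against 12.03% of all genes. The estimated difference was positive for 29 of the 34, with a median of 0.13 against 0.02 over all genes, and without replicate 2 it was positive for 21, with a median of 0.07 against 0.03. The positive estimates of Ctsd and Ctsl, the largest of the 34, rested on replicate 2. Ctsd averaged 103 ± 114 FPKM in SHP2-null and 41.9 ± 3.54 FPKM in SHP2-WT cells, a difference of 0.76 ± 0.41 on the log2 scale that did not pass (adjusted p = 0.389), and without replicate 2 its SHP2-null mean was 45.8 ± 8.98 FPKM and the difference 0.11. In the other groups Ctsd was read at 43.5, 44.1, 41.3 and 43.2 FPKM in BCR-ABL (+/+) SHP2-null, 39.0, 45.4, 41.9 and 43.1 FPKM in BCR-ABL (+/+) SHP2-WT and 36.6, 43.6, 43.6 and 43.7 FPKM in BCR-ABL (-/-) SHP2-WT cells, so that these 12 libraries stayed within a narrow range. For Ctsl the estimate was 0.95 with replicate 2 and 0.30 without it, and neither passed.

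A further 4 genes passed when replicate numbers were entered as a block (5.75% of all genes passed with the block). The numbers were taken to pair libraries in this comparison, by the rule given below. Smpd1 was read at 5.55, 6.12, 7.52 and 6.73 FPKM in SHP2-null cells, against 4.66, 5.09, 4.98 and 4.36 FPKM in SHP2-WT cells, with no overlap (difference 0.37 ± 0.09, adjusted p = 0.0554, with the block 0.0154, and with the block but without replicate 2 0.0498). Grn, the precursor of the granulins, was read at 10.7, 11.5, 10.8 and 6.47 FPKM in SHP2-null cells, against 7.67, 7.85, 4.26 and 3.79 FPKM in SHP2-WT cells. Replicate 3 of the SHP2-null cells lay inside the SHP2-WT range, and the difference was 0.68 ± 0.22 (adjusted p = 0.151, with the block 0.021, and 0.0502 with the block but without replicate 2). Glb1, which encodes beta-galactosidase, was read at 11.0, 9.77, 10.8 and 9.55 FPKM in SHP2-null cells, against 13.7, 14.3, 11.2 and 12.8 FPKM in SHP2-WT cells. All 4 SHP2-null libraries lay below the SHP2-WT libraries, and the difference was -0.31 ± 0.08 (adjusted p = 0.052, with the block 0.0254, without replicate 2 0.0777, and 0.0262 with the block but without replicate 2). Arsb, a sulfatase of dermatan sulfate, was read at 4.87, 4.60, 2.63 and 3.28 FPKM in SHP2-null cells, against 5.92, 6.02, 4.67 and 3.92 FPKM in SHP2-WT cells, which overlap (difference -0.35 ± 0.17, adjusted p = 0.314, with the block 0.0422, and 0.126 with the block but without replicate 2). Grn and Arsb therefore did not pass with the block once replicate 2 was left out. Groups that did not overlap were found for Psap, Smpd1 and Ctsb, higher, and Glb1, lower, that is 4 of 34 genes, while 9.09% of all genes did not overlap. Without replicate 2 the same 4 genes did not overlap, and 11.6% of all genes did not.

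Loss of SHP2 in BCR-ABL (+/+) cells gave no call among the 34 genes, where 0.313% of all genes passed (limma, and 0.295% without BCR-ABL (-/-) SHP2-null replicate 2, which shares in the estimate of spread). At an unadjusted p below 0.05 there was 1 gene of 34, Glb1, against 3.65% of all genes, and without that replicate 2 there were 4 of 34, 3 of them higher, against 4.74% of all genes. Psap was read at 164, 175, 177 and 184 FPKM in SHP2-null cells, against 142, 159, 143 and 150.0 FPKM in SHP2-WT cells. The groups did not overlap, and the means were 175 ± 8.30 and 149 ± 7.89 FPKM (SD, n = 4 each), a difference of 0.24 ± 0.12 that did not pass (adjusted p = 1, without that replicate 2 0.342). Hexa was read at 4.76, 4.37, 4.86 and 3.72 FPKM in SHP2-null cells, against 3.10, 2.62, 2.56 and 2.02 FPKM in SHP2-WT cells. These groups did not overlap either, and the difference was 0.61 ± 0.30 (adjusted p = 1, without that replicate 2 0.103). Glb1 was read at 10.1, 9.94, 10.7 and 9.53 FPKM in SHP2-null cells, against 12.6, 14.0, 12.01 and 12.8 FPKM in SHP2-WT cells, with all SHP2-null libraries lower (difference -0.33 ± 0.08, adjusted p = 0.119, with the replicate block 0.0848). Psap, Hexa and Glb1 were the 3 of 34 genes whose groups did not overlap, while 3.1% of all genes did not overlap.

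**Figure D4:**
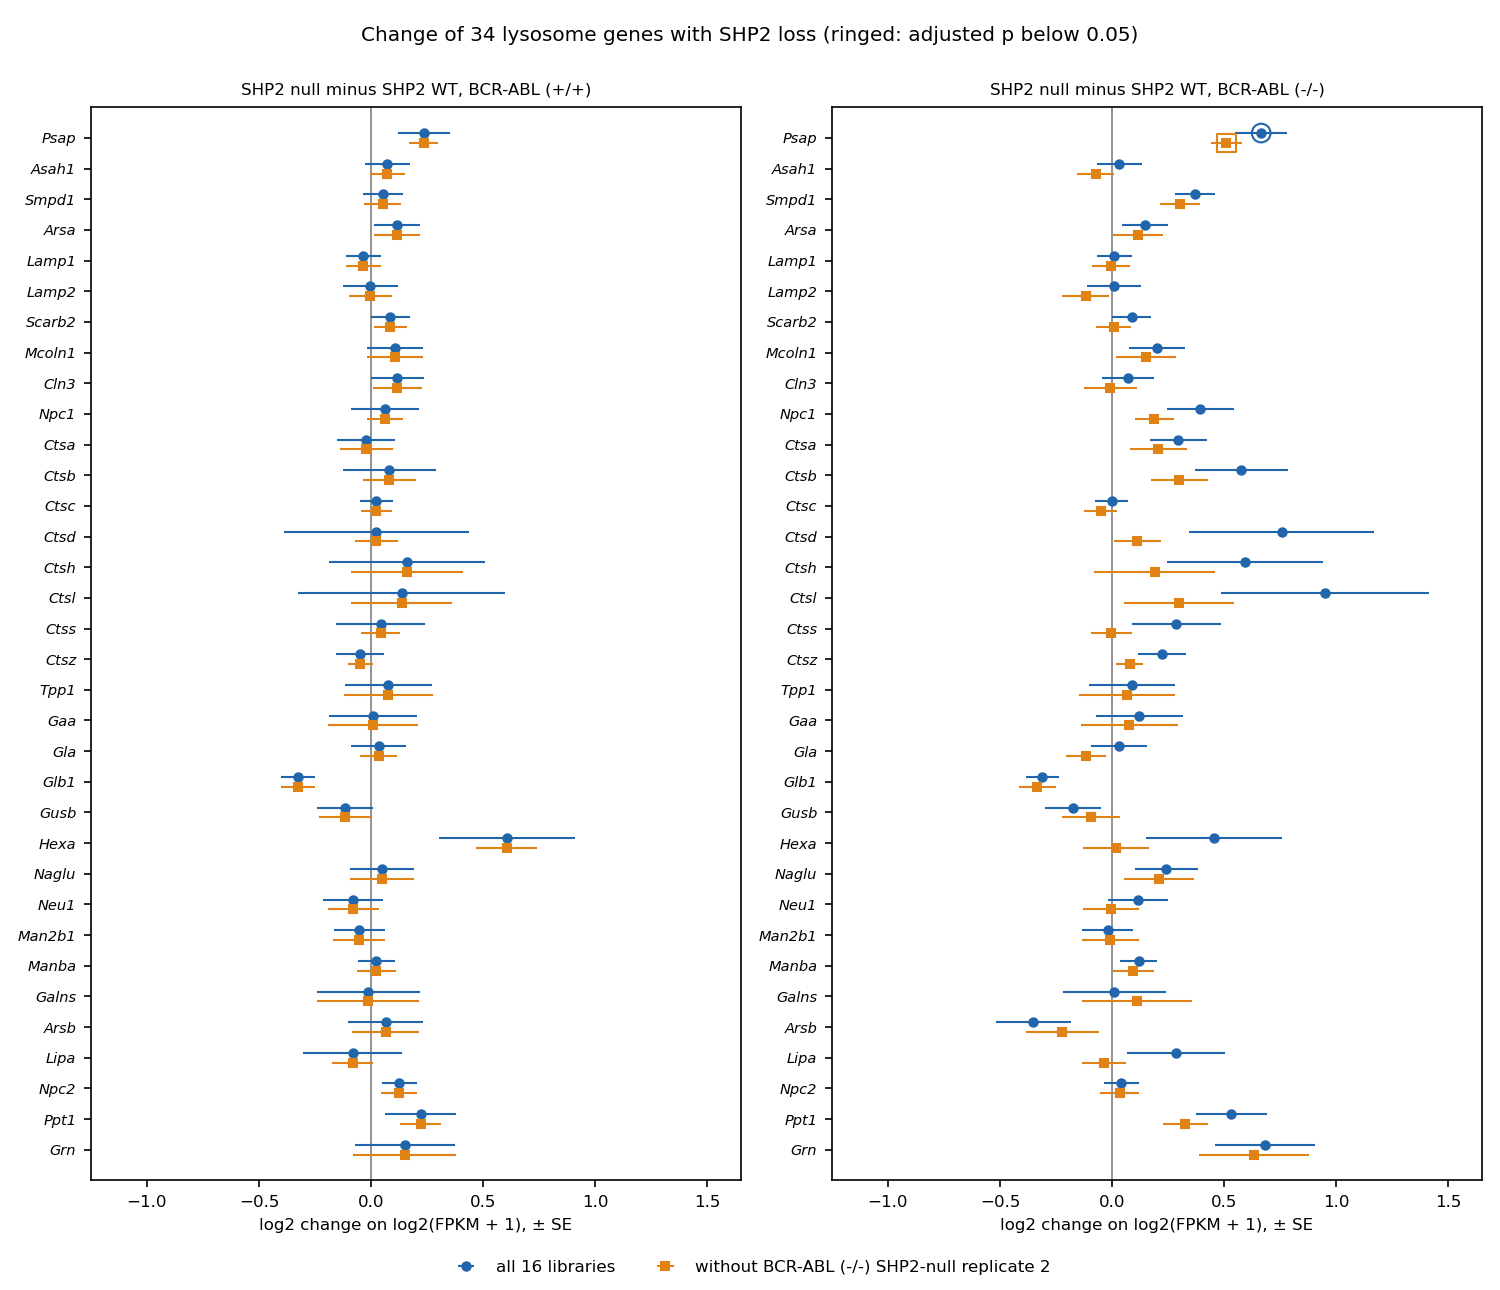
Points give the log2 change, SHP2-null minus SHP2-WT, with its SE for the 34 lysosome genes tested, in BCR-ABL (+/+) cells (left) and BCR-ABL (-/-) cells (right). Circles use all 16 libraries, squares leave out BCR-ABL (-/-) SHP2-null replicate 2, and a ring or outer square marks an adjusted p below 0.05. Psap in BCR-ABL (-/-) cells is the only gene marked, and the estimates for Ctsl, Ctsd, Ctsh and Hexa there move towards 0 without replicate 2.

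Lamp1 and Lamp2, the main membrane glycoproteins of the organelle, did not pass with loss of SHP2. Lamp1 averaged 79.6 ± 6.87 FPKM in SHP2-null and 81.6 ± 6.12 FPKM in SHP2-WT cells with BCR-ABL (+/+), a difference of -0.04 ± 0.08. With BCR-ABL (-/-) it averaged 64.7 ± 3.30 FPKM in SHP2-null and 64.3 ± 3.82 FPKM in SHP2-WT cells, a difference of 0.01 ± 0.08. Lamp2 was read at 19.96, 21.8, 31.7 and 25.0 FPKM in BCR-ABL (-/-) SHP2-null cells, against 25.9, 23.2, 24.3 and 23.2 FPKM in BCR-ABL (-/-) SHP2-WT cells, with replicate 2 again the highest and the groups overlapping. In BCR-ABL (+/+) cells Lamp2 was read at 24.8, 20.4, 27.3 and 26.8 FPKM in SHP2-null and 24.8, 21.9, 25.1 and 27.4 FPKM in SHP2-WT cells, also overlapping. Npc2 was read at 65.7, 61.4, 69.0 and 70.7 FPKM in BCR-ABL (+/+) SHP2-null and 58.3, 62.6, 62.0 and 61.0 FPKM in BCR-ABL (+/+) SHP2-WT cells, a difference of 0.13 ± 0.08 that did not pass. In BCR-ABL (-/-) cells Npc2 was read at 63.9, 59.2, 60.3 and 54.1 FPKM in SHP2-null and 63.8, 61.8, 50.8 and 54.9 FPKM in SHP2-WT cells, with wide overlap.

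Whether the effect of SHP2 loss differed with BCR-ABL was tested as an interaction. No lysosome gene passed (limma), and 0% of all genes tested passed, while 2 of 34 genes, Psap and Smpd1, and 5.79% of all genes had an unadjusted p below 0.05. The Psap difference between the effects was -0.43 ± 0.16 on the log2 scale, SHP2 loss with BCR-ABL minus SHP2 loss without it (adjusted p = 0.839). Without BCR-ABL (-/-) SHP2-null replicate 2 it was -0.27 ± 0.10 (adjusted p = 0.811), and 2 of 34 genes, 1 of them with a positive estimate, had an unadjusted p below 0.05, against 5.95% of all genes. The SHP2 effect on Psap, called only in BCR-ABL (-/-) cells, was therefore not shown to differ between the backgrounds.

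In SHP2-WT cells BCR-ABL went with higher Psap and Lamp1 and lower Arsb. Psap was read at 142, 159, 143 and 150.0 FPKM in BCR-ABL (+/+) cells, against 105, 110.1, 115 and 104 FPKM in BCR-ABL (-/-) cells, with no overlap. It rose by 0.45 ± 0.12 on the log2 scale (limma, adjusted p = 0.0384, without BCR-ABL (-/-) SHP2-null replicate 2 0.000752). Lamp1 (chr8:13159161-13175338) was read at 79.0, 74.1, 86.7 and 86.5 FPKM in BCR-ABL (+/+) cells, against 64.0, 63.4, 60.3 and 69.5 FPKM in BCR-ABL (-/-) cells, again with every BCR-ABL (+/+) library higher. Its means were 81.6 ± 6.12 and 64.3 ± 3.82 FPKM (SD, n = 4 each), and it rose by 0.34 ± 0.08 (adjusted p = 0.0203, without that replicate 2 0.0192). Arsb (chr13:93771679-93943016) was read at 2.85, 3.56, 2.03 and 2.93 FPKM in BCR-ABL (+/+) cells, against 5.92, 6.02, 4.67 and 3.92 FPKM in BCR-ABL (-/-) cells, with every BCR-ABL (+/+) library lower. The means were 2.84 ± 0.629 and 5.13 ± 1.02 FPKM, and it fell by 0.68 ± 0.17 on the log2 scale (adjusted p = 0.0309, without that replicate 2 0.0153).

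The 3 calls of 34 genes compare with 4.67% of all genes, and 7 of 34 genes, 6 of them higher, had an unadjusted p below 0.05 against 19.1% of all genes. Without BCR-ABL (-/-) SHP2-null replicate 2 these were 8 of 34, 7 of them higher, against 20.5% of all genes. The median difference was 0.09 over the 34 genes and 0.04 over all genes. Each of the 3 calls was lost without some single library. The Psap call was lost in 9 of 16 such fits (adjusted p up to 0.0994), among them each fit that left out 1 library of the groups compared. The Arsb call was lost in 6, up to 0.0989, and the Lamp1 call in 3, without BCR-ABL (-/-) SHP2-WT replicate 2 (0.08) and without BCR-ABL (+/+) SHP2-WT replicates 2 (0.0692) or 3 (0.0657). A fit on the 2 groups alone gave 0.011 for Psap, 0.0413 for Arsb and 0.0516 for Lamp1. The Psap call was also lost with median-ratio scaling (limma, adjusted p = 0.0754) and with quantile normalization (0.0886). With no filter Psap had 0.0519 and Arsb 0.0565, and with a mean of at least 5 FPKM Psap had 0.055.

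Ppt1 did not pass in this comparison with all libraries, although its groups did not overlap. It was read at 86.0, 77.6, 79.7 and 81.9 FPKM in BCR-ABL (+/+) cells, against 63.5, 57.3, 49.0 and 51.0 FPKM in BCR-ABL (-/-) cells (difference 0.56 ± 0.16, adjusted p = 0.0565). Without BCR-ABL (-/-) SHP2-null replicate 2, which is in neither group but adds to the pooled spread, Ppt1 passed (adjusted p = 0.00213), making 4 calls of 34 against 6.21% of all genes. Grn averaged 10.7 ± 2.39 FPKM in BCR-ABL (+/+) and 5.89 ± 2.16 FPKM in BCR-ABL (-/-) cells, with the largest estimate of the 34 genes (0.79 ± 0.22, adjusted p = 0.0577). Its libraries overlapped, since BCR-ABL (+/+) replicate 2 read 7.38 FPKM and BCR-ABL (-/-) replicates 0 and 1 read 7.67 and 7.85 FPKM. Groups that did not overlap were found for Psap, Lamp1 and Ppt1, higher, and Ctsz and Arsb, lower, that is 5 of 34 genes, while 11.7% of all genes did not overlap. Ctsz, a cysteine carboxypeptidase, averaged 27.9 ± 0.811 FPKM in BCR-ABL (+/+) and 30.1 ± 1.26 FPKM in BCR-ABL (-/-) cells and did not pass.

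**Figure D5:**
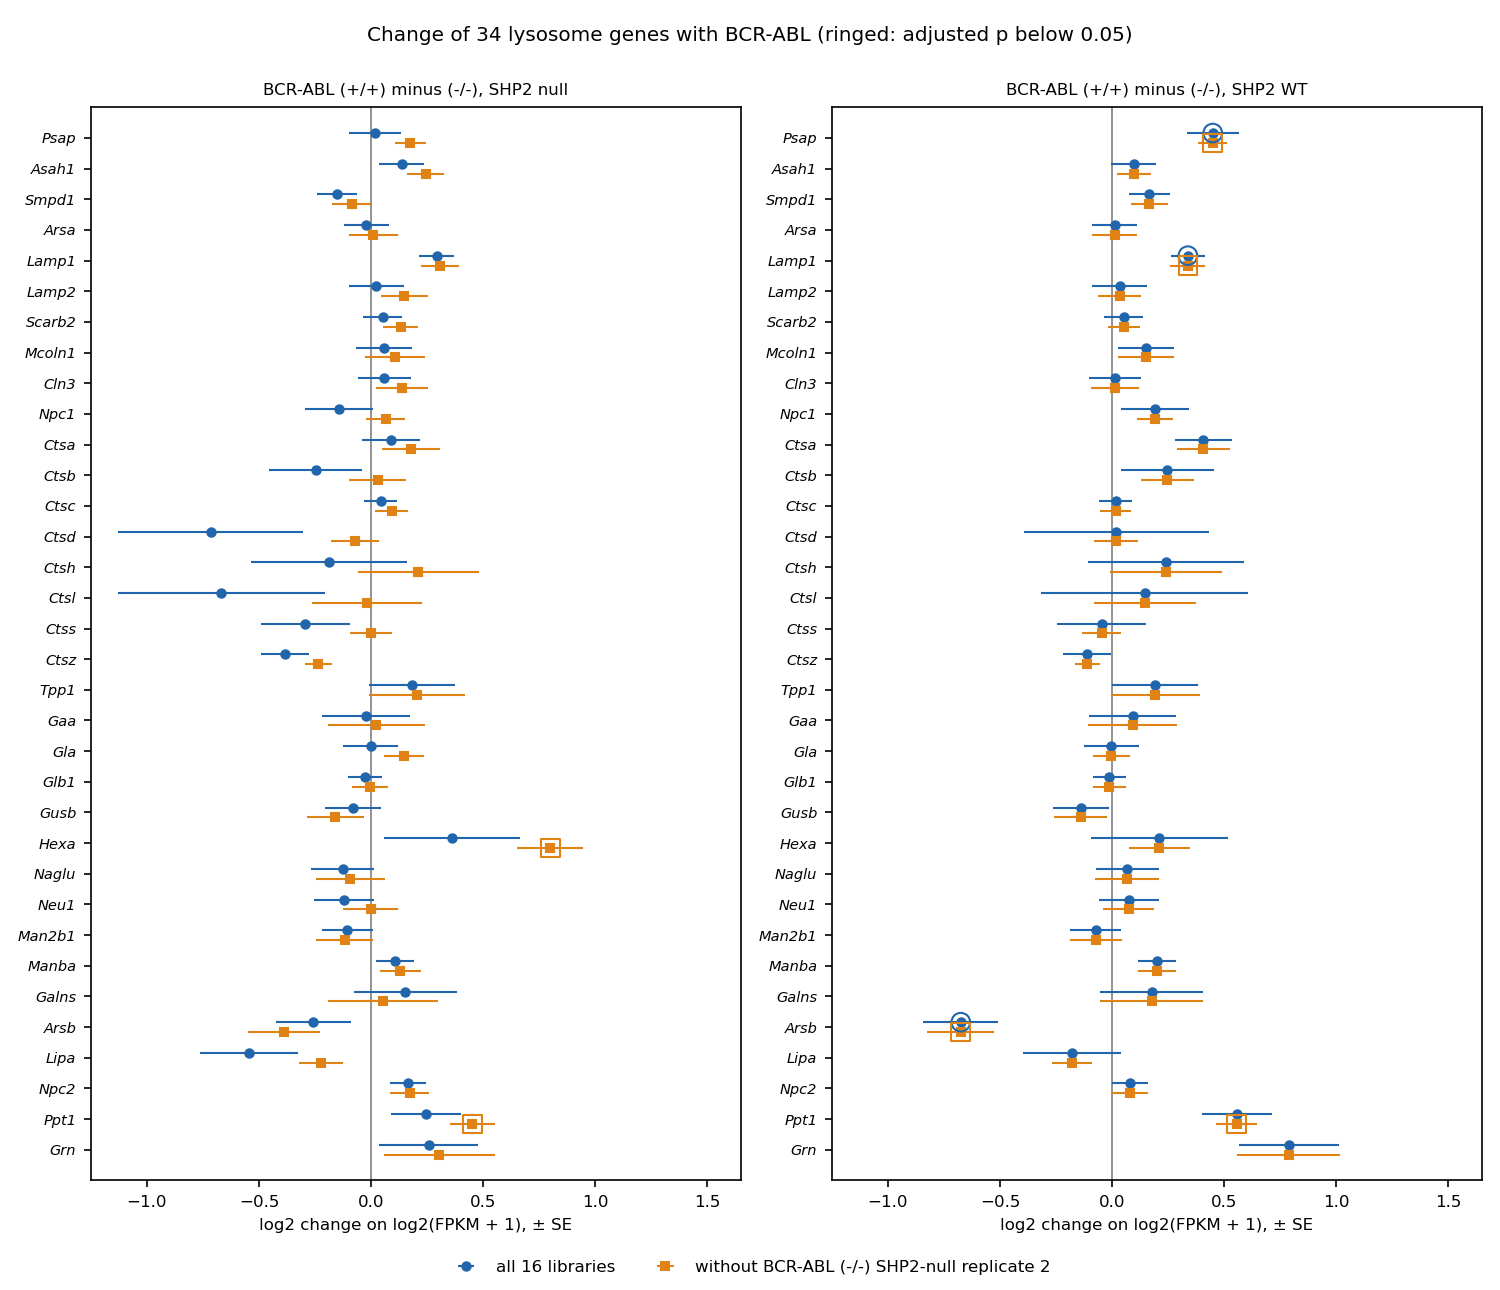
Points give the log2 change, BCR-ABL (+/+) minus (-/-), with its SE for the 34 lysosome genes tested, in SHP2-null cells (left) and SHP2-WT cells (right). Circles use all 16 libraries, squares leave out BCR-ABL (-/-) SHP2-null replicate 2, and a ring or outer square marks an adjusted p below 0.05. In SHP2-WT cells Psap, Lamp1 and Arsb are marked in both fits and Ppt1 in one, and in SHP2-null cells Hexa and Ppt1 are marked without replicate 2.

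In SHP2-null cells no lysosome gene passed for BCR-ABL with all libraries (limma, against 1.26% of all genes), and 3 of 34, Lamp1, Ctsz and Lipa, had an unadjusted p below 0.05, against 13.5% of all genes. Without BCR-ABL (-/-) SHP2-null replicate 2 there were 2 calls, Hexa and Ppt1, against 1.68% of all genes, and 8 of 34 genes, 5 of them higher, had an unadjusted p below 0.05, against 15.1% of all genes. Hexa was read at 4.76, 4.37, 4.86 and 3.72 FPKM in BCR-ABL (+/+) cells, against 2.27, 1.997, 9.45 and 2.06 FPKM in BCR-ABL (-/-) cells. Replicate 2 lay above all BCR-ABL (+/+) libraries and replicates 0, 1 and 3 below them, and the difference was 0.36 ± 0.30 with it (adjusted p = 0.656) and 0.80 ± 0.15 without it (adjusted p = 0.013). Ppt1 was read at 98.0, 84.8, 107 and 91.0 FPKM in BCR-ABL (+/+) cells, against 71.3, 73.6, 123 and 62.8 FPKM in BCR-ABL (-/-) cells, where replicate 2 was again the highest of the 8. Its difference was 0.25 ± 0.16 with that library (adjusted p = 0.539) and 0.45 ± 0.10 without it (adjusted p = 0.0345).

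Lamp1 was read at 76.7, 71.3, 85.1 and 85.4 FPKM in BCR-ABL (+/+) SHP2-null cells, against 61.3, 62.6, 66.7 and 68.2 FPKM in BCR-ABL (-/-) SHP2-null cells, with no overlap. The difference was 0.29 ± 0.08 (adjusted p = 0.093, without replicate 2 0.09). With replicate numbers as a block, taken to pair libraries here too, Lamp1 was the 1 lysosome gene that passed (adjusted p = 0.0122, against 5.27% of all genes). Psap differed by 0.02 ± 0.12 with all libraries and by 0.18 ± 0.07 without replicate 2 (adjusted p = 0.25), and Arsb by -0.26 ± 0.17 (adjusted p = 0.545) with all libraries and by -0.39 ± 0.16 without replicate 2 (adjusted p = 0.276). Lamp1 was higher and Ctsz and Lipa were lower with no overlap, that is 3 of 34 genes against 7.07% of all genes. Without replicate 2 Psap, Asah1, Hexa and Ppt1 joined Lamp1, making 7 of 34 against 13.9% of all genes. The median difference was -0.01 over the 34 genes and -0.01 over all genes, and without replicate 2 it was 0.08 and -0.02.

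The 4 comparisons share their groups, so that the values of Psap are best read side by side. Its mean was 175 ± 8.30 FPKM in BCR-ABL (+/+) SHP2-null, 149 ± 7.89 FPKM in BCR-ABL (+/+) SHP2-WT, 155 ± 5.07 FPKM in BCR-ABL (-/-) SHP2-null without replicate 2 and 109 ± 4.91 FPKM in BCR-ABL (-/-) SHP2-WT cells (SD). The ranges of BCR-ABL (+/+) SHP2-WT and BCR-ABL (-/-) SHP2-null cells overlapped, and BCR-ABL (-/-) SHP2-WT cells lay below all others. For Lamp1 the 8 BCR-ABL (+/+) libraries, at 71.3 to 86.7 FPKM, lay above the 8 BCR-ABL (-/-) libraries, at 60.3 to 69.5 FPKM. For Glb1 the 8 SHP2-null libraries, at 9.53 to 11.0 FPKM, lay below the 8 SHP2-WT libraries, at 11.2 to 14.3 FPKM. How many of all genes separate 8 against 8 libraries in either way was not computed.

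Other genes of the pathway were counted in lists chosen like the members, with earlier results of these data known. Of 31 tested hydrolases and activators, 1 fell with loss of SHP2 in BCR-ABL (-/-) cells, where 1.54% of all genes passed, and 1 rose with BCR-ABL in SHP2-WT cells, where 4.67% did. Without BCR-ABL (-/-) SHP2-null replicate 2 these counts were 1 and 2, with Dpp7, a lysosomal dipeptidyl peptidase gene, added to Pla2g15, against 1.01% and 6.21% of all genes. The first was Idua, which degrades dermatan and heparan sulfate, with 1.58 ± 0.247 FPKM in SHP2-null and 2.64 ± 0.490 FPKM in SHP2-WT cells (-0.49 ± 0.10, adjusted p = 0.0245, and -0.53 with adjusted p = 0.0391 without replicate 2). The second was Pla2g15, a lysosomal phospholipase, with 4.47 ± 0.190 FPKM in BCR-ABL (+/+) and 3.40 ± 0.449 FPKM in BCR-ABL (-/-) cells (0.32 ± 0.09, adjusted p = 0.0498). None of 20 other membrane proteins, 16 regulators such as Tfeb and 15 autophagy genes passed in any of the 4 pairwise comparisons in the fit of all libraries without a block. Without BCR-ABL (-/-) SHP2-null replicate 2, 1 regulator, Rragd, fell and 1 autophagy gene, Gabarap, rose with BCR-ABL in SHP2-WT cells, against 6.21% of all genes. With the replicate block, 1 regulator, Rptor, rose with loss of SHP2 in BCR-ABL (-/-) cells, against 5.75% of all genes. With BCR-ABL in SHP2-null cells the block gave 2 regulators, Fnip1 and Zkscan3, 1 membrane protein, Slc38a9, and 1 autophagy gene, Atg12, as higher. It gave 1 regulator, Lamtor4, and 1 membrane protein, Slc11a2, as lower, where 5.27% of all genes passed. Of 17 subunits of the vacuolar ATPase, the proton pump of the organelle, Atp6ap1 rose with BCR-ABL in SHP2-WT cells, with 31.6 ± 2.03 FPKM in BCR-ABL (+/+) and 23.8 ± 4.80 FPKM in BCR-ABL (-/-) cells (0.41 ± 0.11, adjusted p = 0.0395).

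Among 18 tested genes of sorting to the lysosome, Vps33a, a subunit of the HOPS complex that tethers endosomes to lysosomes, rose with loss of SHP2 in both backgrounds, the 1 call of the list in each, against 0.313% of all genes with BCR-ABL and 1.54% without it. In BCR-ABL (+/+) cells it averaged 12.5 ± 0.375 FPKM in SHP2-null and 9.61 ± 0.0528 FPKM in SHP2-WT cells (0.34 ± 0.05, adjusted p = 0.00223). In BCR-ABL (-/-) cells it averaged 12.6 ± 0.487 FPKM in SHP2-null and 9.11 ± 0.306 FPKM in SHP2-WT cells (0.43 ± 0.05, adjusted p = 0.000219, and 0.42 with adjusted p = 0.000728 without replicate 2). Vps33a lies on chromosome 5, as does Ptpn11, the deleted gene, with 2.4 Mb between their starts, and Idua lies on the same chromosome at 12.5 Mb. The part of that position in either difference was not tested. Vps41, another HOPS subunit, rose with BCR-ABL in SHP2-WT cells, with 20.6 ± 1.40 FPKM in BCR-ABL (+/+) and 16.6 ± 1.08 FPKM in BCR-ABL (-/-) cells (0.30 ± 0.08, adjusted p = 0.0353).

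Marker genes also moved in these comparisons. Among macrophage markers, Ccr2 rose with loss of SHP2 in BCR-ABL (+/+) cells, with 1.42 ± 0.288 FPKM in SHP2-null and 0.360 ± 0.118 FPKM in SHP2-WT cells (adjusted p = 0.0162), while the summed markers ran from 13.1 to 16.4 FPKM in SHP2-null and 11.2 to 25.1 FPKM in SHP2-WT cells. Mast cell markers summed to 0.0537 to 8.95 FPKM in BCR-ABL (-/-) SHP2-null and 6.95 to 12.5 FPKM in BCR-ABL (-/-) SHP2-WT cells. The 8.95 FPKM was that of SHP2-null replicate 2. Without it the SHP2-null sums ran from 0.0537 to 3.02 FPKM, all below the SHP2-WT sums. In BCR-ABL (+/+) SHP2-WT cells the markers summed to 0.421 to 5.38 FPKM. Cma1, a mast cell chymase, fell with loss of SHP2 in BCR-ABL (-/-) cells (-1.35 ± 0.22, limma, adjusted p = 0.00435, and -1.63 with adjusted p = 0.000103 without BCR-ABL (-/-) SHP2-null replicate 2). It also fell with BCR-ABL in SHP2-WT cells (-1.97 ± 0.22, adjusted p = 8.48e-05), as did the mast cell carboxypeptidase gene Cpa3 (adjusted p = 0.00817). Without that replicate 2, Cpa3 passed as lower with loss of SHP2 in BCR-ABL (-/-) cells too. There 2 of 2 tested mast cell markers passed, against 1.01% of all genes. With the replicate block and all libraries 2 of 3 did, against 5.75% of all genes. Among pre-B markers Il7r, the interleukin 7 receptor gene, rose with loss of SHP2 in BCR-ABL (-/-) cells, with 11.9 ± 2.58 FPKM in SHP2-null and 6.29 ± 0.754 FPKM in SHP2-WT cells (adjusted p = 0.00249, and 0.00309 without replicate 2). Il7r also rose with BCR-ABL in SHP2-WT cells, with 25.3 ± 3.09 FPKM in BCR-ABL (+/+) and 6.29 ± 0.754 FPKM in BCR-ABL (-/-) cells (adjusted p = 1.18e-06), and Cd24a rose there too (adjusted p = 0.0245). The part of these cell-type differences in the Psap, Lamp1 and Arsb results was not tested.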

How the data were processed

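PolyA RNA of 16 mouse pre-B cell libraries was sequenced as paired ends on an Illumina HiSeq after TruSeq Stranded preparation, per the labels' protocols. The authors deposited FPKM values per gene symbol. Bowtie, Cufflinks and GRCm38 (mm10) are named per the submitters' processing notes, with no versions, annotation or strand setting in the labels. The series table held 23758 rows, and 254 symbols listed more than once were summed. It equalled the per-library files in 16 of 16 libraries.

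The 10210 genes that reached 1 FPKM in 4 or more libraries were tested on log2(FPKM + 1), a scale that understates the change of low genes. A single limma fit (limma 3.58.1, R 4.3.3) of 4 group means with a trended prior gave 5 two-sided comparisons, adjusted by Benjamini-Hochberg over all genes tested, and called below 0.05. The fit was tested on simulated data. Tables and figures were made with Python 3.11.15, pandas 2.3.3 and matplotlib 3.10.9. The members, lists and tests were chosen with earlier results of these data known. Psap, Lamp1, Lamp2, called members and the 5 members with the highest mean are given in full, and the others by range and count. Non-overlap means that every library of 1 group lies above every library of the other.

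Replicate numbers were taken as pairing libraries where every correlation of same-number deviations from the group means was over 0.1. They were 0.218 to 0.783 for loss of SHP2 with BCR-ABL and 0.189 to 0.51 without it. For BCR-ABL in SHP2-null cells they were 0.242 to 0.68, so all of these were taken to pair. The rule does not show pairing by number, since some libraries correlated more with another number. Replicate 3 had 0.822 against 0.218 for loss of SHP2 with BCR-ABL and 0.538 against 0.461 without it. Replicate 2 had 0.478 against 0.338 for loss of SHP2 with BCR-ABL and 0.385 against 0.242 for BCR-ABL in SHP2-null cells. Replicates 0 and 1 correlated most with their own number in each. For BCR-ABL in SHP2-WT cells 1 was 0.0549, so these were not taken to pair. Where used, the block covered the libraries of all 4 groups. Gene positions and promoters are from RefSeq on GRCm38.p6.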

Additional observations from a re-analysis of the deposited data

Results flagged for a closer look

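Of 140 sets of 4 libraries (35 genes in 4 groups), 16 held a library far from the other 3, judged by its gap to the nearest of them over the whole range (the limit of Dixon for 4 values). Chance gives about 1 in 20. In BCR-ABL (-/-) SHP2-null cells replicate 2 was far above the others for 10 genes. It read 239 FPKM of Psap, 24.6 of Asah1, 12.7 of Cd63, 14.2 of Npc1, 274 of Ctsd, 12.7 of Ctsl, 79.5 of Ctss, 48.3 of Ctsz, 9.45 of Hexa and 24.8 FPKM of Lipa. In the same group replicate 3 was far below the others for Gaa (1.67 FPKM), Naglu (1.93 FPKM) and Grn (6.47 FPKM). In BCR-ABL (+/+) SHP2-WT cells replicate 1 was low for Asah1 (18.2 FPKM, the others 21.2 to 21.7) and replicate 3 was high for Ctsb (33.3 FPKM, the others 22.5 to 23.8). In BCR-ABL (-/-) SHP2-WT cells replicate 0 was low for Ctsd, with 36.6 FPKM against 43.6 to 43.7 in the others. No gene moved in opposite directions, with no overlap, between the 2 SHP2 comparisons or between the 2 BCR-ABL comparisons.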

How the results depend on the processing

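No member's difference that was called changed sign under any alternative. The counts of called members that moved by more than 1.5 times were these. For loss of SHP2 without BCR-ABL (1 call), there were 2 with median-ratio scaling, 2 with quantile normalization, 5 with the replicate block, 5 with array weights, 0 on the groups compared only, 3 with the block and without BCR-ABL (-/-) SHP2-null replicate 2, and 1 to 2 when single libraries were left out. For BCR-ABL in SHP2-WT cells (3 calls), there were 1 with no filter, 1 with a mean of at least 5 FPKM, 6 with the replicate block, 5 with array weights, 7 with the block and without that replicate 2, 6 without replicates 2 and 3 of that group, and 0 to 5 when single libraries were left out. For BCR-ABL in SHP2-null cells (0 calls), there were 1 with either scaling, 1 with the replicate block, 7 with array weights, 5 with the block and without that replicate 2, and 0 to 2 when single libraries were left out. The cause was not tested. The block with that library left out, and leaving out replicates 2 and 3 together, were chosen after seeing the data. The block changed no other count of called members, and the interaction has no fit on the groups compared only. Of the differences of single members in single settings, 51 passed only in an alternative and 25 only in the fit reported. With unknown depth, low members such as Ctsh, Arsa and Ctsl have the least certain values.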

Other observations

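Within groups, 5 of the 35 lysosome genes, Naglu, Tpp1, Galns, Man2b1 and Gusb, were higher in replicates 0 and 1 than in replicates 2 and 3 in all 4 groups, as were 7.27% of all genes tested. Galns, a sulfatase of keratan sulfate, was read at 13.2, 14.5, 9.48 and 10.8 FPKM in replicates 0 to 3 of BCR-ABL (+/+) SHP2-null cells and at 11.9, 13.7, 8.07 and 9.12 FPKM in those of BCR-ABL (-/-) SHP2-WT cells. No lysosome gene was lower in replicates 0 and 1 in all 4 groups, against 6.55% of all genes, and Ctsb, Ctsl, Lamp1, Lamp2 and Asah1 were lower in 3 groups. The labels name no batch for these numbers.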
